A study of Mus musculus with 9 samples.

Results

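Bone marrow-derived macrophages (BMDMs) that had received recombinant Annexin A5 (AnxA5) together with an inflammatory stimulus were compared with BMDMs that had received the stimulus alone, and the description covers genes outside the Toll-like receptor pathway. The M+AnxA5 group was given LPS, IFN-γ and AnxA5, the Model group LPS and IFN-γ, and the Control group neither. LPS was used at 1 µg/mL and IFN-γ at 30 ng/mL, all 3 groups were collected at 6 h, and each held 3 RNA-seq libraries. The macrophages came from male wild-type C57BL/6 mice of 4 to 6 weeks and had been grown from bone marrow for 5 days with 20 ng/mL M-CSF. The dose of AnxA5 in the sequenced cultures is not given in the text used here, and nothing in them says whether replicates were separate cultures or animals. All p-values therefore reflect only how far these libraries spread, and that spread may be technical. Of 55335 genes in the table, 10096 reached 1 FPKM (fragments scaled to transcript length and sequencing depth) in at least 3 of the 6 M+AnxA5 and Model libraries, and these are the genes described. The rule did not use the direction of any difference, but a gene near 1 FPKM could enter through a single group. Thus 32 genes reached 1 FPKM only in the 3 M+AnxA5 libraries and 20 only in the 3 Model libraries. At its edge, the third highest of the 6 values was 1.0003 FPKM for Lpcat4, just inside, and 0.999 FPKM for Sh3rf1, just outside.

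AnxA5 is a protein that binds phosphatidylserine in the presence of calcium. Phosphatidylserine is kept on the inner side of the plasma membrane of living cells and appears on the outer side of dying cells, where receptors of macrophages read it as a signal for uptake. Bound AnxA5 covers such membranes and can form a lattice on them. Macrophages stimulated with LPS and IFN-γ are a standard culture model of inflammatory macrophages, in which genes for cytokines, nitric oxide synthesis and antigen presentation are strongly expressed.

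The differences between M+AnxA5 and Model were few and mostly small. A gene was called a DEG where its fold change on the log2(FPKM + 1) scale was over 1.2 and limma's Benjamini-Hochberg adjusted p was under 0.05, the thresholds of the study. With AnxA5, 225 genes were higher (2.23% of the 10096) and 94 were lower (0.931%), which makes 319 DEGs (3.16%). Over all 11657 genes tested the share was 2.76% (1.95% higher, 0.815% lower). All 319 had libraries that did not overlap between the groups, a pattern that held for 11.1% of all 10096 genes with the M+AnxA5 libraries on top and for 15.5% with them below. Of the genes that reached 1 FPKM only in the M+AnxA5 libraries 13 were DEGs, and of those only in the Model libraries 2 were. Flt4, Rapgef3 and Mcf2l are among the former and Nrm among the latter. Such genes were described only through the group where they were high, so the counts of higher and lower DEGs depend in part on the rule. The median log2 fold change of all 10096 genes was -0.022, and 9014 of them (89.3%) differed by less than the 1.2-fold threshold. Among the DEGs the median size was 0.43 on the log2 scale. Only 69 higher and 9 lower DEGs exceeded 1.5-fold, and 8 higher and 0 lower DEGs exceeded 2-fold. Fold changes on this scale understate the change of genes with low FPKM. Of the DEGs, 295 were protein-coding and 24 were noncoding.

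How far a call depended on single libraries differed between genes. The number of DEGs dropped to 140 when Model replicate 2 was left out and to 186 when Model replicate 3 was. It was 160 in the absence of M+AnxA5 replicate 2 and 120 in that of M+AnxA5 replicate 3. Removal of all 3 libraries numbered 2, tried after the data were seen, left 11 (8 higher, 3 lower). It left 2 libraries in each group, and the sets numbered 1 or 3 were not removed in the same way. The libraries numbered 2 held the largest shares of ribosomal fragments, 3.59% and 3.16% of the summed FPKM in M+AnxA5 and Model, against 0.53% to 1.19% in the other M+AnxA5 and Model libraries; the part of these fragments in the results was not tested. When each of the 9 libraries was left out in turn, 101 DEGs (75 higher, 26 lower) kept their call every time. Of the 319, 0 changed direction, but this was fixed in advance because their libraries did not overlap between the groups. The text dwells on those 101, a choice made after their values were seen. A gene called higher or lower below is one of them unless the libraries on which its call rested are named beside it.

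**Figure D1:**
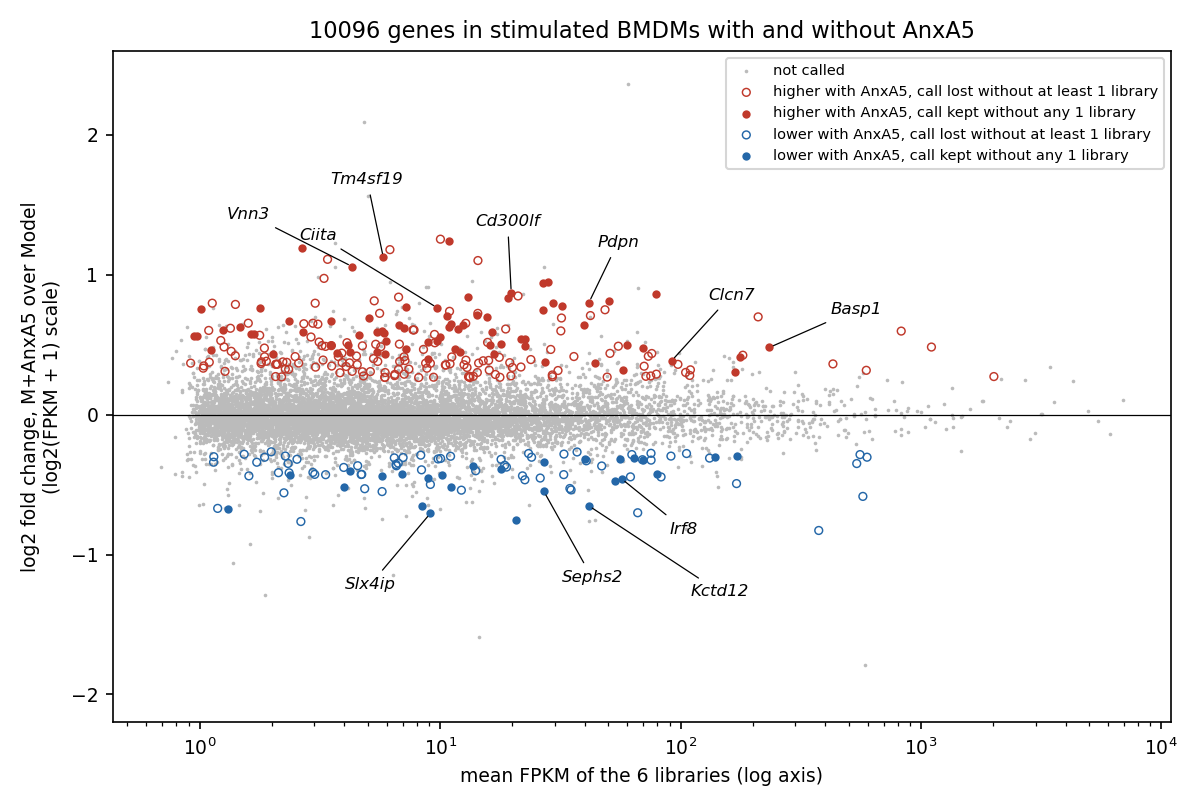
The difference between M+AnxA5 and Model (y axis, log2 fold change on the log2(FPKM + 1) scale) is plotted against the mean FPKM of the 6 libraries (x axis, log scale) for 10096 genes, with filled points for the 101 DEGs that kept their call without any 1 library, open points for the other DEGs and grey points for genes not called. Most genes lie close to 0, and the 225 higher DEGs (red) outnumber the 94 lower ones (blue).

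The estimated depth was 25.9M to 36.1M fragments per M+AnxA5 library and 27.2M to 32.1M per Model library (M, mega), and 1 fragment on 1 kb of transcript then equals 0.0277 to 0.0386 FPKM. The label of the cells was checked against markers. Macrophage markers (7 of 8 among the genes described) summed to 6881 to 7782 FPKM with AnxA5 and 7699.8 to 8592 FPKM in Model, most of it Lyz2, and Cd163 was listed at 0 in all 6 libraries. Within that list Adgre1, which encodes F4/80, was lower with AnxA5 (484, 464 and 478 FPKM with AnxA5, against 615, 621 and 582 FPKM in the Model libraries), a call lost without M+AnxA5 replicate 3 (adjusted p = 0.0510). Cd68, a lysosomal glycoprotein of macrophages, was higher (459, 493 and 501 FPKM with AnxA5, against 401, 356 and 374 FPKM in the Model libraries), a call lost without Model replicates 2 or 3 or M+AnxA5 replicates 2 or 3 (adjusted p 0.0553 to 0.0665). T cell, B cell and NK cell markers summed to less than 3 FPKM in every library, with Cd3e, Pax5 and Ncr1 under 0.1 FPKM. Neutrophil markers summed to 306 to 322 FPKM with AnxA5 and 281 to 367 FPKM in Model, and fibroblast markers to 63.6 to 113 and 73.9 to 112 FPKM, with no DEG in either list. In bulk RNA, fewer cells of a type and less RNA per cell cannot be told apart.

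Of 55 functional lists outside the Toll-like receptor pathway, written with earlier results of these data known, 39 held at least 1 DEG and 16 held none. Each list is described by its counts and median beside the 2.23% higher, 0.931% lower and median of -0.022 of all 10096 genes. The lists with the highest medians were sterol synthesis, MHC class II and the lysosomal proton pump, and the list with the lowest median was that of NRF2 targets. In that order their medians were 0.35, 0.29, 0.23 and -0.26. Without the 3 libraries numbered 2 they were 0.30, 0.37, 0.18 and -0.22.

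**Figure D2:**
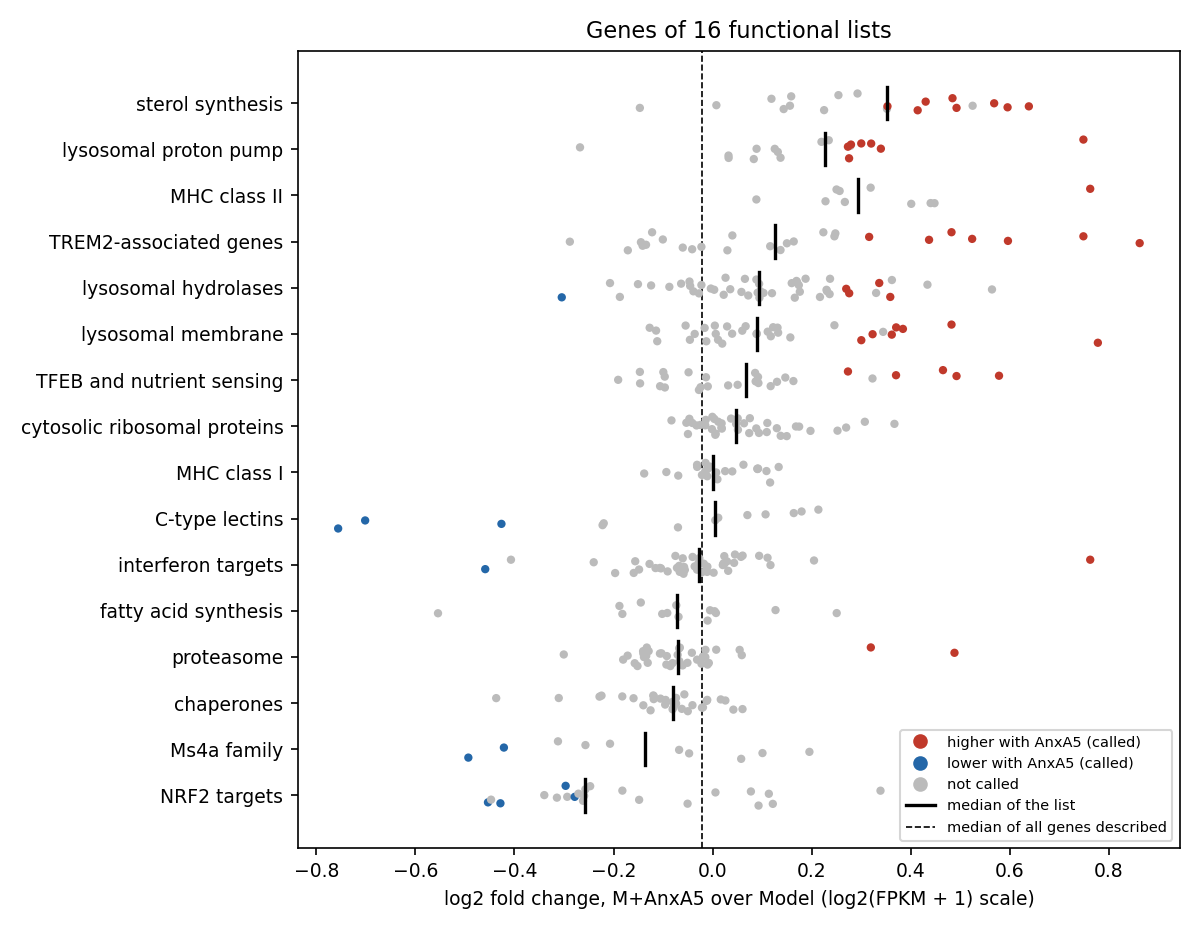
Each point is 1 gene of 16 of the lists, placed by its log2 fold change of M+AnxA5 over Model on the log2(FPKM + 1) scale, with red for genes called higher with AnxA5, blue for genes called lower and grey for genes not called; the solid bar is the median of the list and the dashed line the median of all genes described. The median of sterol synthesis genes lies at 0.35 and that of NRF2 targets at -0.26, while the medians of MHC class I, ribosomal and chaperone genes lie nearer to the dashed line, at 0.0011, 0.048 and -0.081.

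Cholesterol is made in a chain of reactions from acetyl-CoA through mevalonate and squalene, and cells also take it up from lipoproteins. Of 19 genes of sterol synthesis described, 8 were higher with AnxA5 and 0 were lower, and the list's median was 0.35. In 12 of the 19 all M+AnxA5 libraries lay above the Model libraries, against 11.1% of all genes, and in 0 all lay below, against 15.5%. The count of DEGs was 5 without Model replicate 1 or Model replicate 3 or M+AnxA5 replicate 1, 4 without Model replicate 2 or M+AnxA5 replicate 3 and 0 without the 3 libraries numbered 2. Mvd, the decarboxylase whose product is the first isoprenoid unit, had 7.34, 6.36 and 7.56 FPKM in the M+AnxA5 libraries, against 3.95, 4.40 and 4.69 FPKM in the Model libraries (log2 fold change 0.60, SE 0.072, adjusted p = 0.00478). The lowest M+AnxA5 library lay above the highest Model library by more than the spread within either group. Fdps, which joins these units to farnesyl diphosphate, had 6.68, 6.98 and 7.07 FPKM with AnxA5, against 4.75, 5.29 and 4.58 FPKM in the Model libraries (log2 fold change 0.43, SE 0.060, adjusted p = 0.00774). Further along the chain Sqle, the epoxidase of squalene, had a log2 fold change of 0.49 (adjusted p = 0.0227), a call that was lost without Model replicates 1, 2 or 3 or M+AnxA5 replicates 1, 2 or 3 (adjusted p 0.0516 to 0.0831). Hmgcs1, the synthase at the entry of the pathway, had a log2 fold change of 0.35 (adjusted p = 0.0267) and lost the call without Model replicates 1, 2 or 3 or M+AnxA5 replicates 1, 2 or 3 (adjusted p 0.0665 to 0.105).

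Uptake and storage were read from a second list of 15 genes, of which 3 were higher and 0 lower (median 0.095); the count was 1 without Model replicate 2 or M+AnxA5 replicate 2 or M+AnxA5 replicate 3 and 0 without the 3 libraries numbered 2. Npc1, which moves cholesterol out of the lysosome, had 15.6, 15.8 and 16.2 FPKM with AnxA5, against 12.4, 12.7 and 13.02 FPKM in the Model libraries (log2 fold change 0.30), and its call was lost without Model replicate 2 or M+AnxA5 replicates 2 or 3 (adjusted p 0.0514 to 0.0636). Soat1, which esterifies cholesterol for storage in droplets, had a log2 fold change of 0.31 and lost its call without Model replicates 1 or 2 or M+AnxA5 replicates 2 or 3 (adjusted p 0.0569 to 0.0826). Nceh1, a hydrolase that frees cholesterol from those esters, is on neither list and had 24.996, 27.9 and 27.8 FPKM with AnxA5, against 19.6, 16.7 and 18.3 FPKM in the Model libraries (log2 fold change 0.54, SE 0.066, adjusted p = 0.00478). Of 14 genes of fatty acid synthesis, in contrast, 0 were DEGs by limma (3 had an unadjusted p under 0.05) and the median was -0.071; whether the lists differ from each other was not tested.

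Single enzymes that act on other lipids were called, in both directions, and were chosen after their values were seen. B4galt6, which makes lactosylceramide, was lower and is given with the Golgi enzymes. Cerk, the kinase that phosphorylates ceramide, had 14.001, 13.04 and 14.5 FPKM in the M+AnxA5 libraries, against 8.42, 8.15 and 8.86 FPKM in the Model libraries (log2 fold change 0.65, SE 0.053, adjusted p = 0.00188), and it stayed a DEG without the 3 libraries numbered 2. The gene lies on chromosome 15 from 86139128 to 86186141 of GRCm38. Gde1 and Gdpd1 split glycerophosphodiesters, the second as a lysophospholipase D. Gde1 had 78.99, 81.5 and 82.3 FPKM with AnxA5, against 54.8, 58.4 and 61.1 FPKM in the Model libraries (log2 fold change 0.47, adjusted p = 0.00296). Gdpd1 had 4.36, 3.95 and 4.54 FPKM with AnxA5, against 2.64, 2.88 and 2.71 FPKM in the Model libraries (log2 fold change 0.50, adjusted p = 0.00560). Lipn, a member of the acid lipase family, had 2.93, 3.24 and 3.16 FPKM with AnxA5, against 1.71, 1.53 and 1.52 FPKM in the Model libraries (log2 fold change 0.67). Hcar2, the receptor of niacin and of the ketone body beta-hydroxybutyrate, had 48.6, 49.02 and 48.2 FPKM with AnxA5, against 30.5, 31.96 and 30.3 FPKM in the Model libraries (log2 fold change 0.64, SE 0.065, adjusted p = 0.00273), with the M+AnxA5 libraries within 1 FPKM of each other. Plin2, which coats lipid droplets, had a log2 fold change of 0.30 and lost its call without Model replicates 2 or 3 or M+AnxA5 replicates 1, 2 or 3 (adjusted p 0.0668 to 0.0846). The list of 39 sphingolipid and phospholipid genes, which does not contain these enzymes, held 0 DEGs by limma (10 had an unadjusted p under 0.05), and the count was 1 (lower) without Model replicate 2.

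Lysosomes degrade what macrophages take up. A vacuolar proton pump (V-ATPase) acidifies them, ion channels and transporters of the membrane balance charge and export products, and the Rag GTPases on their surface report nutrients to mTORC1. Of 18 subunits of the pump, 7 were higher and 0 lower (median 0.23). In 13 of the 18 all M+AnxA5 libraries lay above the Model libraries, against 11.1% of all genes, and in 1 all lay below, against 15.5%. The count of DEGs was 2 without Model replicate 3 or M+AnxA5 replicate 2 or M+AnxA5 replicate 3, 1 without Model replicate 2 and 0 without the 3 libraries numbered 2. Among the subunits, the M+AnxA5 libraries had 74.4, 80.8 and 80.8 FPKM of Atp6v1a, the catalytic subunit, against 66.3, 64.5 and 63.8 FPKM in the Model libraries (log2 fold change 0.27). The call of Atp6v1a was lost without Model replicates 2 or 3 or M+AnxA5 replicates 2 or 3 (adjusted p 0.0743 to 0.0876). Of 33 lysosomal membrane genes 7 were higher and 0 lower (median 0.089; the count was 3 without Model replicate 2 or M+AnxA5 replicate 2, 2 without M+AnxA5 replicate 3 and 1 without the 3 libraries numbered 2). Of 47 lysosomal hydrolases 4 were higher and 1 was lower (median 0.095; the count was 2 (1 higher and 1 lower) without M+AnxA5 replicate 1 or Control replicate 3, 2 (higher) without M+AnxA5 replicate 2, 1 (lower) without Model replicate 1, 1 (higher) without Model replicate 3 and 0 without Model replicate 2 or M+AnxA5 replicate 3 or the 3 libraries numbered 2).

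Clcn7, the chloride-proton exchanger of the lysosomal membrane, had 105, 100 and 107 FPKM in the M+AnxA5 libraries, against 80.7, 81.5 and 76.5 FPKM in the Model libraries (log2 fold change 0.38, SE 0.051, adjusted p = 0.00619). The Rag GTPases Rragc and Rragd, which work as partners of RagA or RagB, were both higher. Rragc had 47.2, 51.3 and 50.8 FPKM with AnxA5, against 38.4, 37.4 and 38.9 FPKM in the Model libraries (log2 fold change 0.37, SE 0.047, adjusted p = 0.00509). Rragd, at a much lower level, had 2.16, 2.09 and 2.40 FPKM with AnxA5, against 1.102, 1.23 and 1.12 FPKM in the Model libraries (log2 fold change 0.58, SE 0.063, adjusted p = 0.00296). Fnip2 and Flcn, whose proteins form a complex that acts on RagC and RagD, had log2 fold changes of 0.47 and 0.49; the call of Fnip2 was lost without M+AnxA5 replicate 3 (adjusted p = 0.0510) and that of Flcn without Model replicates 2 or 3, M+AnxA5 replicates 1, 2 or 3 or Control replicate 3 (adjusted p 0.0707 to 0.145). The transcription factors that drive lysosomal genes were not called: Tfeb differed by 0.15 (adjusted p = 0.440), Tfe3 by -0.15 (adjusted p = 0.211) and Mitf by -0.15 (adjusted p = 0.236).

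A list of 44 genes of membrane repair and endocytosis held 1 higher and 1 lower gene, with a median of -0.046. In 11 of the 44 all M+AnxA5 libraries lay below the Model libraries, against 15.5% of all genes, and in 5 all lay above, against 11.1%. The list's count of DEGs was 1 (lower) without Model replicate 3 or M+AnxA5 replicate 1, 1 (higher) without M+AnxA5 replicate 2 and 0 without Model replicate 1 or Model replicate 2 or M+AnxA5 replicate 3 or the 3 libraries numbered 2. Its DEGs were Numb, an endocytic adaptor (0.26), and Ehd1, which acts in endocytic recycling (-0.31), given as log2 fold changes; calls were lost without Model replicates 1, 2 or 3 or M+AnxA5 replicates 1 or 3 (adjusted p 0.0554 to 0.0875) for Numb and without Model replicates 1 or 2 or M+AnxA5 replicates 2 or 3 (adjusted p 0.0603 to 0.0854) for Ehd1. A list of 43 genes of Rab GTPases and vesicle fusion held 2 higher and 0 lower genes (median -0.013), and the count was 1 without Model replicate 2 or M+AnxA5 replicate 2 or M+AnxA5 replicate 3 and 0 without the 3 libraries numbered 2. The genes that follow were chosen after their values were seen, except where a list holds them. Wdr91, which controls the maturation of endosomes, had 12.3, 13.3 and 14.8 FPKM with AnxA5, against 9.003, 8.30 and 7.74 FPKM in the Model libraries (log2 fold change 0.63, SE 0.078, adjusted p = 0.00480). Lyst, the gene mutated in Chediak-Higashi syndrome, in which lysosomes are enlarged, had 9.94, 10.9 and 9.93 FPKM with AnxA5, against 7.60, 7.25 and 7.83 FPKM in the Model libraries (log2 fold change 0.40). Arl11, an Arf-like GTPase, had 7.89, 9.19 and 9.19 FPKM with AnxA5, against 5.69, 5.14 and 5.24 FPKM in the Model libraries (log2 fold change 0.62). Mreg, melanoregulin, had 2.08, 2.20 and 2.20 FPKM with AnxA5, against 1.04, 1.07 and 1.24 FPKM in the Model libraries (log2 fold change 0.58). Scpep1, a lysosomal serine carboxypeptidase, had 184, 188 and 189 FPKM with AnxA5, against 151, 148 and 153 FPKM in the Model libraries (log2 fold change 0.31, adjusted p = 0.00765). Furin, a protease that activates precursor proteins in the Golgi and endosomes, had 18.7, 19.5 and 19.2 FPKM with AnxA5, against 13.5, 13.3 and 12.96 FPKM in the Model libraries (log2 fold change 0.50). Wdr91 and the genes after it each had all 3 M+AnxA5 libraries above all 3 Model libraries, as every higher DEG did. Gpr137b, a lysosomal membrane protein, was also higher (12.4, 14.1 and 13.7 FPKM with AnxA5, against 8.38, 7.12 and 8.07 FPKM in the Model libraries), but it has a near-identical copy, Gpr137b-ps, that rose with it, and how reads were split between the copies is uncertain.

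TREM2 is a lipid receptor of macrophages, and the genes that rise with it in lipid-laden macrophages overlap with those of lysosomes and lipid binding. Of 26 such genes 7 were higher and 0 lower (median 0.13), and the count was 4 without Model replicate 2 or Model replicate 3 or M+AnxA5 replicate 2, 2 without M+AnxA5 replicate 3 and 0 without the 3 libraries numbered 2. Lgals3, which encodes galectin-3, had 938, 1029.7 and 1021 FPKM with AnxA5, against 709, 591 and 679 FPKM in the Model libraries (log2 fold change 0.60), a call lost without M+AnxA5 replicate 3 (adjusted p = 0.0510). Gpnmb, a glycoprotein of lysosomes and the cell surface, had 1177, 1365 and 1327 FPKM with AnxA5, against 974, 856 and 936 FPKM in the Model libraries (log2 fold change 0.48), a call lost without M+AnxA5 replicate 3 (adjusted p = 0.0585). Both genes had all 3 M+AnxA5 libraries above all 3 Model libraries, which held for every higher DEG and adds no support to these calls. Atp6v0d2, a pump subunit known from osteoclasts and macrophages, had 50.5, 69.5 and 63.3 FPKM with AnxA5, against 42.1, 30.8 and 34.9 FPKM in the Model libraries (log2 fold change 0.75), a call lost without Model replicates 2 or 3 or M+AnxA5 replicates 2 or 3 (adjusted p 0.0772 to 0.0892).

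**Figure D3:**
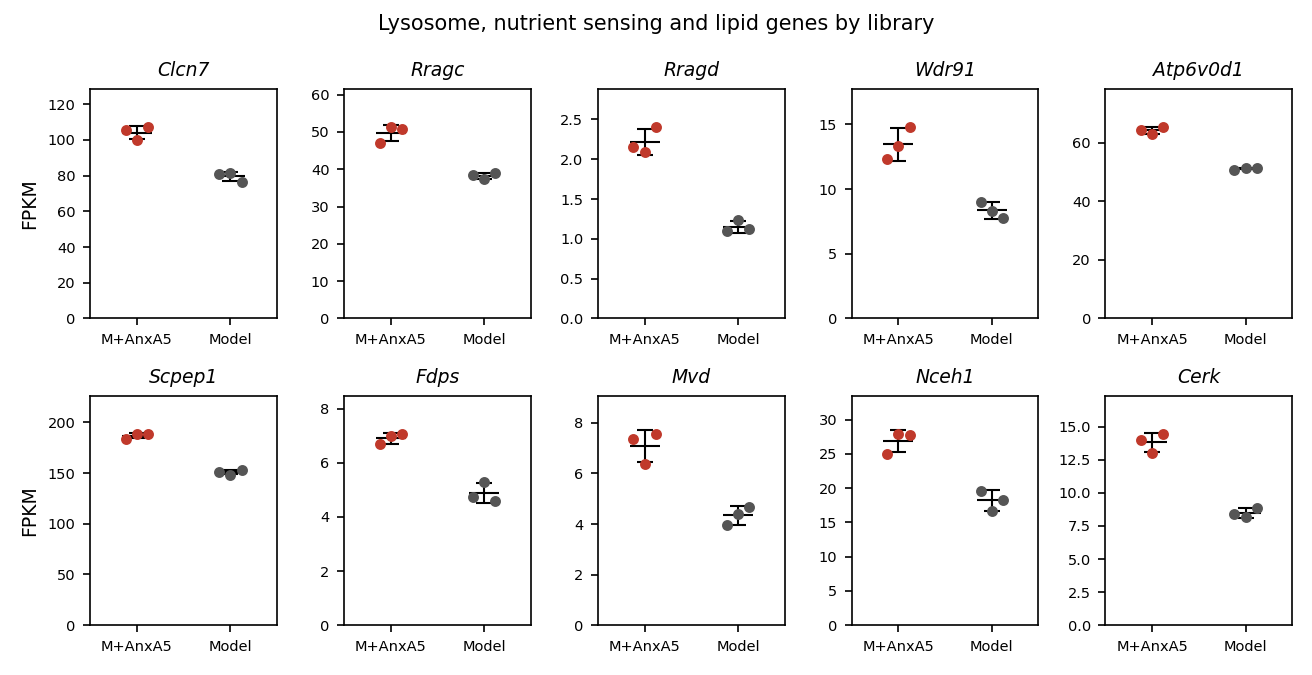
FPKM of 10 genes of lysosomes, nutrient sensing and lipid metabolism (y axes, each starting at 0) in the 3 M+AnxA5 libraries (red) and the 3 Model libraries (grey), with the mean and SD in black. For all 10 genes the red points lie above the grey ones, as for Cerk with 14.001, 13.04 and 14.5 FPKM with AnxA5 against 8.42, 8.15 and 8.86 FPKM. All 10 are higher DEGs, and this held for every higher DEG.

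Lysosomal genes are known for short E-box motifs in their promoters, and the promoters of the genes described were searched for the 8-letter palindrome TCACGTGA, which contains the common E-box CACGTG, on both strands of the 300 bases around each start (RefSeq, GRCm38.p6). A gene counted as a match if any of its promoters held the motif, so genes with more promoters had more chances. Matches were 1.12% of all 27025 genes with a promoter and 2.54% of the 7161 of them among the genes described. Among DEGs with a promoter they were 5 of 156 higher (3.21%) and 1 of 66 lower (1.52%). In the lysosomal lists the motif was found for 3 of 12 genes of pump subunits, 4 of 26 of the membrane list and 3 of 37 of the hydrolases. It was found for 0 of 26 of the nutrient sensing list that holds the Rag genes. The sequences below are those of 3 higher DEGs and of the 1 lower DEG with the motif fully before the start, each on the strand of its gene, with the motif in capitals; a match is no evidence that a factor binds there.
Atp6v1a: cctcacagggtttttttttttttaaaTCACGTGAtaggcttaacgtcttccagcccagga
Amdhd2: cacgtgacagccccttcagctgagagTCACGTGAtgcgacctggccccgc
Dpp7: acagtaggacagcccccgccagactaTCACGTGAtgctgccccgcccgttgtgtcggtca
Sephs2: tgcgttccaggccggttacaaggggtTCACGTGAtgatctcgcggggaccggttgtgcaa
The windows are chr16:44139358-44139417, chr17:24163734-24163783, chr2:25356373-25356432 and chr7:127274187-127274246, all on the minus strand. Amdhd2, a deacetylase of N-acetylglucosamine 6-phosphate, had 6.80, 7.69 and 7.12 FPKM with AnxA5, against 4.98, 4.15 and 4.28 FPKM in the Model libraries (log2 fold change 0.59, SE 0.073, adjusted p = 0.00480). Dpp7, a dipeptidyl peptidase of intracellular vesicles, had a log2 fold change of 0.39 and lost its call without Model replicates 2 or 3 or M+AnxA5 replicates 2 or 3 (adjusted p 0.0643 to 0.0743). Sephs2, which makes the selenium donor for selenoproteins, was lower and is described with the antioxidant genes. A 9-letter element bound by SREBP, the transcription factor family of sterol genes (TCACNCCAC, both strands), was counted by gene in the same way. It was found for 1.44% of all genes with a promoter and 1.34% of those described. Among DEGs it was found for 5 of 156 higher (3.21%) and 2 of 66 lower (3.03%), and in the list of sterol synthesis for 1 of 14 genes. The higher DEGs were Clcn7, Hmgcs1, Hyal1, Tm4sf19 and Wdr91, and the lower were Camk1d and Ctsc. The calls of Clcn7, Tm4sf19 and Wdr91 held without any 1 library, and those of the others did not. Only Hmgcs1 is on the list of sterol synthesis, and only its sequence is printed. The element lies before the gene's start and is shown in capitals within chr13:119690188-119690248 on the plus strand.
Hmgcs1: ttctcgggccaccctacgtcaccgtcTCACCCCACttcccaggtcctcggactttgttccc

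Antigen presentation on MHC class II needs the co-activator CIITA, which switches on the class II genes, and the invariant chain CD74, which guides the molecules to endosomes. Ciita had 12.5, 12.3 and 12.7 FPKM in the M+AnxA5 libraries, against 6.70, 7.28 and 6.91 FPKM in the Model libraries (log2 fold change 0.76, SE 0.066, adjusted p = 0.00204), a ratio of 1.80 between the mean FPKM. The 3 libraries of each group lay within 1 FPKM of each other, and the call was kept without the 3 libraries numbered 2. Ciita lies on chromosome 16 from 10480059 to 10528418 (GRCm38) and overlaps Dexi, a gene on the other strand that was also higher (2.47, 2.40 and 2.55 FPKM with AnxA5, against 1.68, 1.58 and 1.45 FPKM in the Model libraries), so that fragments of the overlap may have been counted for either gene. All 10 class II genes described had every M+AnxA5 library above every Model library, a pattern with a share of 11.1% over all genes, and the list's median was 0.29, but Ciita was the only DEG. H2-Aa had 126, 100.3 and 115 FPKM with AnxA5, against 85.5, 87.4 and 77.3 FPKM in the Model libraries (log2 fold change 0.44, adjusted p = 0.0703). Cd74 had 632, 550.3 and 632 FPKM with AnxA5, against 495, 546 and 467 FPKM in the Model libraries (log2 fold change 0.27, adjusted p = 0.409). The count of DEGs in this list was 3 without Control replicate 1 and 2 without Model replicate 1 or Control replicate 2 or Control replicate 3. Of 22 genes of the class I pathway 0 were DEGs by limma (1 had an unadjusted p under 0.05) and the median was 0.0011.

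Other genes of antigen-presenting cells moved in different directions. Ly75, which encodes the endocytic receptor DEC-205, had 9.29, 9.47 and 9.19 FPKM with AnxA5, against 5.01, 4.90 and 5.30 FPKM in the Model libraries (log2 fold change 0.77, SE 0.065, adjusted p = 0.00201). Irf8, a transcription factor of macrophages and dendritic cells that IFN-γ induces, was lower, with 48.2, 47.7 and 47.3 FPKM with AnxA5, against 69.2, 64.3 and 64.6 FPKM in the Model libraries (log2 fold change -0.46, SE 0.059, adjusted p = 0.00559). Xcr1, a chemokine receptor known from cross-presenting dendritic cells, was lower, with 2.86, 3.11 and 3.31 FPKM with AnxA5, against 4.96, 5.12 and 4.48 FPKM in the Model libraries (log2 fold change -0.52, SE 0.067, adjusted p = 0.00560). Of 5 dendritic cell markers 2 were among the genes described. Their sum was 11.5 to 13.2 FPKM with AnxA5 and 12.8 to 14.5 FPKM in Model, Flt3 and Cd209a stayed under 0.1 FPKM, and Clec9a was not called (8.49, 9.87 and 9.44 FPKM with AnxA5, against 8.94, 9.17 and 8.20 FPKM in the Model libraries). Of 48 interferon target genes only Ciita was higher and only Irf8 was lower, with a median of -0.028. In 14 of the 48 all M+AnxA5 libraries lay below the Model libraries, against 15.5% of all genes, and in 1 all lay above, against 11.1%. The guanylate-binding protein genes Gbp8 and Gbp2b differed by 0.34 and -0.53, with calls lost without Model replicates 1, 2 or 3, M+AnxA5 replicates 1, 2 or 3 or Control replicates 1, 2 or 3 (adjusted p 0.0562 to 0.154) and without Model replicate 3 (adjusted p = 0.0509), and reads of these similar paralogs may have been split unevenly.

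Receptors of the cell surface showed both directions. Of 9 members of the Cd300 family, a group formed after the values were seen, 2 were higher and 0 lower. Cd300lf, which encodes a receptor that binds phosphatidylserine, had 24.8, 27.9 and 24.8 FPKM in the M+AnxA5 libraries, against 14.01, 12.3 and 14.8 FPKM in the Model libraries (log2 fold change 0.87, SE 0.091, adjusted p = 0.00273), a ratio of 1.89 between the means; its lowest M+AnxA5 library lay well above its highest Model library. The gene lies on chromosome 11 from 115116214 to 115133992. Cd300a, whose inhibitory receptor binds phosphatidylserine and phosphatidylethanolamine, had 14.2, 14.97 and 14.8 FPKM with AnxA5, against 11.01, 10.05 and 11.8 FPKM in the Model libraries (log2 fold change 0.39), and its call was lost without M+AnxA5 replicates 2 or 3 (adjusted p 0.0502 to 0.0558). These were the only DEGs among 31 genes for recognition of phosphatidylserine and uptake of dying cells (median 0.0058). Mertk, a receptor tyrosine kinase of that list that reads phosphatidylserine through bridging proteins, was not called (146, 138 and 141 FPKM with AnxA5, against 143, 142 and 141 FPKM in the Model libraries; log2 fold change -0.0033, 95% interval -0.10 to 0.094).

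Among 13 C-type lectin receptors 0 were higher and 3 were lower, all of the Clec4a group of neighbouring genes that encode DCIR and its relatives. Clec4a3 had 5.67, 6.26 and 5.34 FPKM with AnxA5, against 8.14, 8.28 and 7.79 FPKM in the Model libraries (log2 fold change -0.43, SE 0.060, adjusted p = 0.00840). Clec4a1 had 58.6, 44.4 and 48.2 FPKM with AnxA5, against 78.4, 91.9 and 76.7 FPKM in the Model libraries (log2 fold change -0.70), a call lost without M+AnxA5 replicate 3 (adjusted p = 0.0586). These genes are close paralogs, so the split of reads between them is uncertain. Clec7a, the beta-glucan receptor Dectin-1, was not called (320.1, 356 and 332 FPKM with AnxA5, against 308, 298 and 328 FPKM in the Model libraries). Of 10 genes of the Ms4a family, which encode membrane proteins with 4 passes, 0 were higher and 2 were lower (median -0.14). Ms4a6b had 71.8, 67.3 and 64.7 FPKM with AnxA5, against 92.5, 89.9 and 91.4 FPKM in the Model libraries (log2 fold change -0.42, SE 0.052, adjusted p = 0.00479), and Ms4a4a had a log2 fold change of -0.49 with a call lost without Model replicates 1, 2 or 3, M+AnxA5 replicates 2 or 3 or Control replicates 1, 2 or 3 (adjusted p 0.0507 to 0.145). The scavenger receptor gene Marco, which binds bacteria and particles, had 543, 377 and 463 FPKM with AnxA5, against 688, 741 and 629 FPKM in the Model libraries, and its call was lost without Model replicates 1, 2 or 3, M+AnxA5 replicates 2 or 3 or Control replicates 1, 2 or 3 (adjusted p 0.0552 to 0.141).

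**Figure D4:**
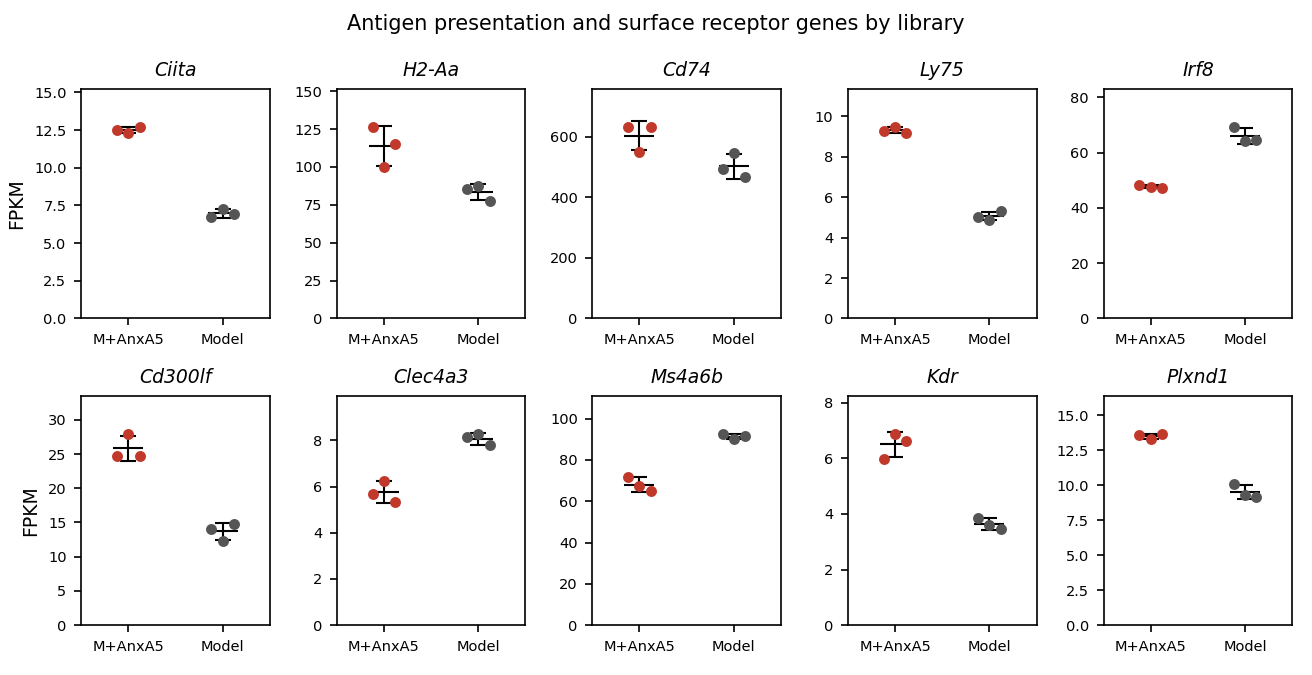
FPKM of 10 genes of antigen presentation and of surface receptors (y axes, each starting at 0) in the 3 M+AnxA5 libraries (red) and the 3 Model libraries (grey), with the mean and SD in black. Ciita, Ly75, Cd300lf, Kdr and Plxnd1 lie higher with AnxA5, Irf8, Clec4a3 and Ms4a6b lie lower, and H2-Aa and Cd74 lie above Model in all 3 libraries without being called.

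Receptors of vascular growth factors and of semaphorins held 4 of the higher DEGs, of which 1, Flt4, was described only through the group where it was high. Kdr, which encodes the VEGF receptor VEGFR2, had 5.996, 6.88 and 6.64 FPKM in the M+AnxA5 libraries, against 3.87, 3.59 and 3.47 FPKM in the Model libraries (log2 fold change 0.69, SE 0.063, adjusted p = 0.00215). Endothelial markers other than Kdr were low in all 6 libraries, with Cdh5 at 0.339, 0.424 and 0.565 FPKM with AnxA5 and 0.732, 0.392 and 0.603 FPKM in Model and Tek at 0.0193 FPKM or less. Flt4, which encodes VEGFR3, had 1.23, 1.33 and 1.29 FPKM with AnxA5, against 0.787, 0.780 and 0.819 FPKM in the Model libraries and a call lost without M+AnxA5 replicate 3 (adjusted p = 0.0510). The plexins are receptors for semaphorins, which guide axons and vessels. Plxna1 had 67.2, 73.4 and 69.6 FPKM with AnxA5, against 52.1, 45.98 and 49.9 FPKM in the Model libraries (log2 fold change 0.50, SE 0.056, adjusted p = 0.00361). Plxnd1 had 13.6, 13.3 and 13.7 FPKM with AnxA5, against 10.1, 9.28 and 9.18 FPKM in the Model libraries (log2 fold change 0.47, SE 0.045, adjusted p = 0.00262). Of 4 genes for VEGF receptors and neuropilins 2 were higher and 0 lower, and the count of 2 includes Flt4, which reached 1 FPKM only with AnxA5. Nrp1, a neuropilin, had all M+AnxA5 libraries below the Model libraries without a call (log2 fold change -0.24). Of 4 plexin genes 2 were higher and 0 lower, with 1 that had all M+AnxA5 libraries below, and of 5 semaphorin genes 0 were DEGs (1 had an unadjusted p under 0.05), in groups formed after the values were seen. Other membrane proteins among the higher DEGs were those of Pdpn, Lrp12 and Tm4sf19. Pdpn, which encodes podoplanin, the ligand of the platelet receptor CLEC-2, had 59.7, 51.1 and 48.8 FPKM with AnxA5, against 29.1, 30.9 and 30.1 FPKM in the Model libraries (log2 fold change 0.80, SE 0.083, adjusted p = 0.00273). Lrp12, which encodes a membrane protein, had 16.4, 16.7 and 17.9 FPKM with AnxA5, against 8.53, 9.85 and 8.75 FPKM in the Model libraries (log2 fold change 0.84, adjusted p = 0.00180) and was still a DEG without the 3 libraries numbered 2. Tm4sf19, which encodes a membrane protein with 4 passes, had 7.26, 9.15 and 8.57 FPKM with AnxA5, against 2.83, 3.61 and 3.40 FPKM in the Model libraries (log2 fold change 1.12, SE 0.11, adjusted p = 0.00262), 1 of the 8 DEGs over 2-fold.

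Cytokines, chemokines and their receptors gave few calls that held without any 1 library. Il7r, the alpha chain of the IL-7 receptor, had 59.2, 70.3 and 63.97 FPKM with AnxA5, against 36.6, 33.8 and 38.5 FPKM in the Model libraries (log2 fold change 0.81, SE 0.083, adjusted p = 0.00273). Ccl9, a chemokine of the CC family, was lower, with 124, 124 and 126 FPKM with AnxA5, against 159, 155 and 149.7 FPKM in the Model libraries (log2 fold change -0.31, SE 0.036, adjusted p = 0.00460). Of 10 CXC chemokine and receptor genes 0 were DEGs (4 had an unadjusted p under 0.05), and the count was 1 (higher) without Control replicate 1. Of 16 genes of the IL-1 family 0 were DEGs (7 at that p), and the count was 1 (higher) without Model replicate 3. Gdf15, a stress cytokine of the TGF-beta family, had 8.86, 9.73 and 8.25 FPKM with AnxA5, against 4.21, 3.12 and 2.93 FPKM in the Model libraries (log2 fold change 1.18); its call was lost without Model replicates 2 or 3 or M+AnxA5 replicates 1, 2 or 3 (adjusted p 0.0550 to 0.0833). Tnfsf15, the cytokine TL1A, had a log2 fold change of 0.39, a call lost without Model replicates 1 or 3 or M+AnxA5 replicates 2 or 3 (adjusted p 0.0507 to 0.0711). Plaur, the receptor of urokinase, had a log2 fold change of 0.44, a call lost without Model replicates 1, 2 or 3 or M+AnxA5 replicates 1, 2 or 3 (adjusted p 0.0565 to 0.0941).

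NRF2 is a transcription factor that oxidants and electrophiles release from KEAP1 and that drives genes of glutathione synthesis, detoxification and iron handling. Of 22 NRF2 target genes 0 were higher and 4 were lower, with a median of -0.26. In 8 of the 22 all M+AnxA5 libraries lay below the Model libraries, against 15.5% of all genes, and in 2 all lay above, against 11.1%. The count of DEGs was 2 (lower) without Model replicate 1 or Control replicate 2 or Control replicate 3, 1 (higher) without M+AnxA5 replicate 3 and 0 without Model replicate 2 or Model replicate 3 or M+AnxA5 replicate 2 or the 3 libraries numbered 2. Gss, glutathione synthetase, had 4.33, 3.43 and 3.81 FPKM with AnxA5, against 5.22, 6.05 and 5.32 FPKM in the Model libraries (log2 fold change -0.43) and lost its call without Model replicates 1, 2 or 3, M+AnxA5 replicates 2 or 3 or Control replicates 2 or 3 (adjusted p 0.0531 to 0.119); it overlaps Acss2. Gsr, glutathione reductase, had 101, 88.4 and 97.6 FPKM with AnxA5, against 113, 115 and 120.2 FPKM in the Model libraries (log2 fold change -0.28) and lost its call without Model replicates 1, 2 or 3, M+AnxA5 replicates 2 or 3 or Control replicates 2 or 3 (adjusted p 0.0516 to 0.112). Slc48a1, a heme transporter, had a log2 fold change of -0.30 and lost its call without Model replicates 1, 2 or 3 or M+AnxA5 replicates 2 or 3 (adjusted p 0.0544 to 0.0970). Hmox1, which breaks down heme, passed the adjusted p but not the fold threshold (1348, 1336 and 1339 FPKM with AnxA5, against 1559.9, 1576 and 1674 FPKM in the Model libraries; log2 fold change -0.26, adjusted p = 0.0394). Slc40a1, the iron exporter ferroportin, had a log2 fold change of -0.53 and lost its call without Model replicates 1, 2 or 3 or M+AnxA5 replicates 1, 2 or 3 (adjusted p 0.0524 to 0.0901). Sephs2, whose promoter is shown above and which is not on the list, had 22.04, 20.7 and 22.6 FPKM with AnxA5, against 31.9, 33.7 and 31.3 FPKM in the Model libraries (log2 fold change -0.55, SE 0.048, adjusted p = 0.00205).

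Export pumps of the Abcc (MRP) family, which move glutathione, its conjugates and leukotriene C4 out of cells, were lower in 3 of 4 members, a group formed after the values were seen. Abcc3 had 1.95, 1.71 and 1.95 FPKM with AnxA5, against 2.72, 2.94 and 2.94 FPKM in the Model libraries (log2 fold change -0.43, SE 0.055, adjusted p = 0.00534). Abcc1, also on the NRF2 list, had 24.4, 20.3 and 20.9 FPKM with AnxA5, against 27.1, 31.1 and 32.6 FPKM in the Model libraries (log2 fold change -0.45) and lost its call without Model replicates 2 or 3 or M+AnxA5 replicates 2 or 3 (adjusted p 0.0867 to 0.102). Abcc4 had a log2 fold change of -0.39 and lost its call without Model replicates 2 or 3, M+AnxA5 replicates 2 or 3 or Control replicates 1, 2 or 3 (adjusted p 0.0547 to 0.154).

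In the secretory pathway, Spcs1 had the lowest adjusted p of the genes named here. Its protein is a subunit of the signal peptidase complex, which removes signal peptides in the endoplasmic reticulum. Spcs1 had 37.1, 37.3 and 38.3 FPKM in the M+AnxA5 libraries, against 20.6, 21.3 and 21.8 FPKM in the Model libraries (log2 fold change 0.80, SE 0.040, adjusted p = 0.000194), a ratio of 1.77 between the means. All 3 libraries of a group lay within 2 FPKM of each other, and the call was kept without the 3 libraries numbered 2. Spcs1 lies on chromosome 14 from 30999826 to 31001672 (GRCm38) and overlaps Glt8d1, so fragments of the overlap are uncertain. Serp1, which stabilises membrane proteins at the translocon during stress, was lower, with 45.7, 43.95 and 43.6 FPKM with AnxA5, against 61.96, 64.4 and 60.3 FPKM in the Model libraries (log2 fold change -0.48, SE 0.052, adjusted p = 0.00296), and overlaps Eif2a. Among 17 genes of the signal peptidase and translocon, grouped after the values were seen, these were the only DEGs. Of 31 chaperones of the endoplasmic reticulum and the heat shock response 0 were DEGs by limma (6 had an unadjusted p under 0.05; the count was 1 (lower) without Control replicate 1 or Control replicate 2), with a median of -0.081. In 8 of the 31 all M+AnxA5 libraries lay below the Model libraries, against 15.5% of all genes, and in 0 all lay above, against 11.1%.

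Enzymes that attach sugars and sulfate in the Golgi differed one by one. Galnt6, which starts O-linked glycans on mucin-type proteins, had 18.1, 20.1 and 20.6 FPKM with AnxA5, against 12.5, 10.3 and 12.6 FPKM in the Model libraries (log2 fold change 0.69, SE 0.089, adjusted p = 0.00534). Xylt2, which starts the chains of proteoglycans, was lower, with 16.3, 15.2 and 14.7 FPKM with AnxA5, against 20.8, 20.2 and 20.2 FPKM in the Model libraries (log2 fold change -0.39, SE 0.048, adjusted p = 0.00485), while its paralog Xylt1 had a log2 fold change of 0.37 with a call lost without Model replicates 1, 2 or 3, M+AnxA5 replicates 1, 2 or 3 or Control replicates 2 or 3 (adjusted p 0.0542 to 0.161). B4galt6, a lactosylceramide synthase, was lower, with 9.33, 8.05 and 8.28 FPKM with AnxA5, against 11.3, 12.04 and 12.2 FPKM in the Model libraries (log2 fold change -0.43, SE 0.057, adjusted p = 0.00626). Fam20c, a kinase that phosphorylates secreted proteins, had 31.1, 35.1 and 35.3 FPKM with AnxA5, against 22.1, 18.7 and 18.6 FPKM in the Model libraries (log2 fold change 0.74, SE 0.075, adjusted p = 0.00273). Papss2, which makes the sulfate donor PAPS, had 8.36, 9.13 and 8.15 FPKM with AnxA5, against 5.90, 5.998 and 5.78 FPKM in the Model libraries (log2 fold change 0.47, SE 0.057, adjusted p = 0.00478). No direction was shared by these enzymes.

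**Figure D5:**
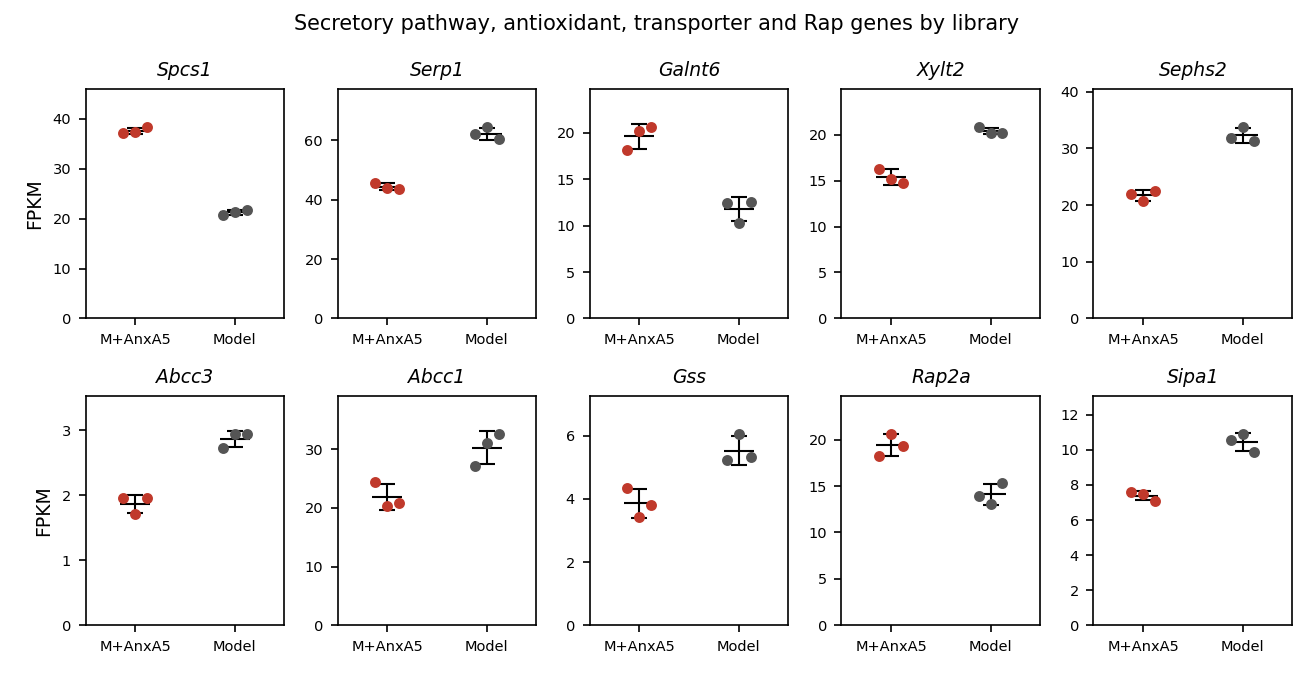
FPKM of 10 genes of the secretory pathway, antioxidant defence, export and Rap signalling (y axes, each starting at 0) in the 3 M+AnxA5 libraries (red) and the 3 Model libraries (grey), with the mean and SD in black. Spcs1, Galnt6 and Rap2a lie higher with AnxA5 and the other 7 genes lie lower. All 10 are DEGs, and the points of the groups do not overlap, which held for every DEG and adds no support.

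Small GTPases and the proteins that load or unload them held several DEGs. Rap GTPases control adhesion through integrins. Rap2a had 18.3, 20.6 and 19.4 FPKM with AnxA5, against 13.9, 13.1 and 15.3 FPKM in the Model libraries (log2 fold change 0.44, SE 0.062, adjusted p = 0.00914). Rapgef3, which encodes EPAC1, a Rap activator that cAMP switches on, had 1.26, 1.41 and 1.29 FPKM with AnxA5, against 0.631, 0.475 and 0.606 FPKM in the Model libraries (log2 fold change 0.56). Sipa1, a protein that inactivates Rap, was lower, with 7.58, 7.46 and 7.10 FPKM with AnxA5, against 10.6, 10.9 and 9.88 FPKM in the Model libraries (log2 fold change -0.45, SE 0.056, adjusted p = 0.00480). Rap2b had a log2 fold change of -0.44 and lost its call without M+AnxA5 replicate 3 (adjusted p = 0.0553). Iqsec1, an activator of Arf6, had 6.46, 7.06 and 6.78 FPKM with AnxA5, against 4.15, 3.87 and 4.44 FPKM in the Model libraries (log2 fold change 0.59). Dock10, a guanine nucleotide exchange factor, had 4.82, 5.18 and 5.15 FPKM with AnxA5, against 3.74, 3.33 and 3.22 FPKM in the Model libraries (log2 fold change 0.45). Of 9 genes of the Dock family, a group formed after the values were seen, 1 was higher and 1 lower, and the lower one, Dock8, had 5.52, 5.70 and 5.71 FPKM with AnxA5, against 7.50, 7.64 and 6.61 FPKM in the Model libraries (log2 fold change -0.31) and lost its call without Model replicates 1 or 2 or M+AnxA5 replicates 1, 2 or 3 (adjusted p 0.0711 to 0.0977). Mcf2l, another exchange factor, was higher, with 1.45, 1.51 and 1.37 FPKM with AnxA5, against 0.681, 0.745 and 0.894 FPKM in the Model libraries (log2 fold change 0.46). In the group of 22 Rap and Arf genes, formed after the values were seen, 3 were higher and 2 lower. Rapgef3, 1 of the 3, and Mcf2l reached 1 FPKM only in the M+AnxA5 libraries and were described only through that group.

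The kinase and phosphatase genes Phlpp1, Sgk1, Rps6ka2 and Mink1 were higher. Phlpp1, a phosphatase that acts on AKT, had 18.9, 20.6 and 20.1 FPKM with AnxA5, against 13.2, 12.4 and 13.1 FPKM in the Model libraries (log2 fold change 0.59, SE 0.060, adjusted p = 0.00273). Sgk1, a kinase related to AKT, had 25.1, 25.995 and 26.6 FPKM with AnxA5, against 18.2, 17.4 and 16.8 FPKM in the Model libraries (log2 fold change 0.54). Rps6ka2, which encodes the kinase RSK3, had 2.21, 2.91 and 2.39 FPKM with AnxA5, against 1.01, 1.01 and 1.16 FPKM in the Model libraries (log2 fold change 0.76). Mink1, a kinase of the Ste20 family, had 20.5, 21.7 and 21.3 FPKM with AnxA5, against 15.02, 13.3 and 15.8 FPKM in the Model libraries (log2 fold change 0.50). Single genes of the cytoskeleton and of adhesion were chosen after their values were seen, so their directions do not describe such genes as a set. Fyb, the adaptor ADAP, had 65.1, 60.3 and 60.6 FPKM with AnxA5, against 78.7, 79.2 and 75.8 FPKM in the Model libraries (log2 fold change -0.33, SE 0.041, adjusted p = 0.00523). Cyfip1, a part of the WAVE complex that drives actin branching, had 36.8, 35.3 and 34.5 FPKM with AnxA5, against 44.03, 44.5 and 45.1 FPKM in the Model libraries (log2 fold change -0.32). Tubb2a, a beta-tubulin, had 56.5, 56.3 and 57.7 FPKM with AnxA5, against 71.3, 74.5 and 66.8 FPKM in the Model libraries (log2 fold change -0.31). Itsn1, an endocytic scaffold, had 3.61, 3.53 and 3.37 FPKM with AnxA5, against 5.03, 4.94 and 4.91 FPKM in the Model libraries (log2 fold change -0.40). Basp1, a membrane-bound protein of high level, was higher (258, 279 and 283 FPKM with AnxA5, against 204, 180.3 and 202 FPKM in the Model libraries; log2 fold change 0.48). In the list of 42 actin and motility genes 1 was lower and 0 were higher, with a median of -0.091. All M+AnxA5 libraries lay below the Model libraries in 18 of 42, against 15.5% of all genes, and above in 7, against 11.1%. The count of that list was 2 (lower) without M+AnxA5 replicate 1, 2 (1 higher and 1 lower) without Control replicate 1 and 0 without Model replicate 1 or Model replicate 2 or M+AnxA5 replicate 2 or M+AnxA5 replicate 3 or the 3 libraries numbered 2. Its DEG was Marcks, which had 71.4, 66.996 and 71.9 FPKM with AnxA5, against 99.8, 97.8 and 90.1 FPKM in the Model libraries and a call lost without Model replicates 1 or 2 or M+AnxA5 replicates 2 or 3 (adjusted p 0.0627 to 0.0825).

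Annexins and S100 proteins, the families to which the added protein and its partners belong, gave 1 call. The 16 genes described had a median of 0.042, with 1 higher and 0 lower. In 5 of the 16 all M+AnxA5 libraries lay above the Model libraries, against 11.1% of all genes, and in 0 all lay below, against 15.5%. Anxa5 itself had 330.0, 336 and 344 FPKM in the M+AnxA5 libraries, against 306, 307 and 299.9 FPKM in the Model libraries (log2 fold change 0.14, 95% interval 0.053 to 0.23, adjusted p = 0.101) and was not called. Since a protein was added and not a gene, the transcript is no check of the treatment. Anxa11 had 14.1, 15.1 and 14.6 FPKM with AnxA5, against 12.4, 11.9 and 11.7 FPKM in the Model libraries (log2 fold change 0.27), and its call was lost without Model replicates 1, 2 or 3, M+AnxA5 replicates 1, 2 or 3 or Control replicate 3 (adjusted p 0.0515 to 0.113). Anxa2, the annexin whose partner is S100a10, was not called (125, 131 and 127 FPKM with AnxA5, against 131, 129 and 135 FPKM in the Model libraries; log2 fold change -0.042, 95% interval -0.13 to 0.045).

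Many lists held no DEG. Those with 0 DEGs by limma included Fc receptors (7 genes, 0 with an unadjusted p under 0.05), immediate early genes and MAP kinase feedback (41 and 9), hypoxia and HIF targets (27 and 2), the itaconate branch and the citric acid cycle (25 and 2), NADPH oxidase (20 and 6), the integrated stress response (29 and 5), cytosolic ribosomal proteins (39 and 8), cell cycle (22 and 3), the BCL-2 family and cell death (24 and 4) and cholesterol efflux (14 and 4). With single libraries left out, the number of DEGs in the immediate early list was 3 (1 higher and 2 lower) without Control replicate 1, 1 (higher) without M+AnxA5 replicate 1 and 1 (lower) without M+AnxA5 replicate 2. By the same count the stress response list had 2 (higher) without Control replicate 1, NADPH oxidase 1 (lower) without Model replicate 1 or M+AnxA5 replicate 1, ribosomal proteins 1 (higher) without Model replicate 1 or M+AnxA5 replicate 2 and cell cycle 1 (lower) without Control replicate 2. A list without a DEG is not shown to be unchanged; over all 10096 genes 1892 had an unadjusted p under 0.05. Acod1, the enzyme that makes itaconate, had 2302, 2274 and 2363 FPKM with AnxA5, against 2416, 2386 and 2370.4 FPKM in the Model libraries (log2 fold change -0.048, 95% interval -0.21 to 0.11). Nos2, the inducible nitric oxide synthase, had 2191, 2226 and 2178 FPKM with AnxA5, against 1771, 1728 and 1973 FPKM in the Model libraries (log2 fold change 0.27), and its call was lost without Model replicates 1 or 2 or M+AnxA5 replicates 1, 2 or 3 (adjusted p 0.0624 to 0.0908). Arg2, the mitochondrial arginase, had a log2 fold change of 0.65 with a call lost without Model replicate 2 or M+AnxA5 replicate 3 (adjusted p 0.0526 to 0.0558), and it overlaps Vti1b. Arg1, the cytosolic arginase, was not called (1.64, 1.79 and 1.399 FPKM with AnxA5, against 1.68, 1.62 and 2.38 FPKM in the Model libraries; log2 fold change -0.14, 95% interval -0.40 to 0.12). Of 37 proteasome genes 2 were higher and 0 lower, and the median was -0.070. In 16 of the 37 all M+AnxA5 libraries lay below the Model libraries, against 15.5% of all genes, and in 3 all lay above, against 11.1%. Psmb6 and Psmd8 had log2 fold changes of 0.32 and 0.49. The call of Psmb6 was lost without M+AnxA5 replicates 2 or 3 (adjusted p 0.0693 to 0.0700). That of Psmd8 was lost without Model replicates 2 or 3 or M+AnxA5 replicates 2 or 3 (adjusted p 0.0723 to 0.0862).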

How the data were processed

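RNA-seq of BMDMs in 3 groups of 3 libraries was analysed. The authors deposited 1 table of FPKM for 55335 genes. The submitters' processing notes name cutadapt 1.9, STAR, StringTie 2.1.6, DESeq2, edgeR and mm10, with no role or order, and whether counting used strand is not given in the sources used here. Whole fragments could not be recovered from the FPKM (30.1% to 31.9% of low values in the 6 libraries lay within 3% of a whole step), so depth was estimated from the steps of low values.

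Tests covered the 11657 genes that reached 1 FPKM in 3 or more of the 9 libraries and used log2(FPKM + 1) values in limma 3.58.1 under R 4.3.3 (3 groups, 9 libraries in 1 fit, empirical Bayes with trend, Benjamini-Hochberg adjustment). A DEG needed a fold over 1.2 with an adjusted p below 0.05. The steps were tested on simulated data. SE is the standard error of the log2 fold change.

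The genes and lists were chosen with earlier results of these data known. Named were the 20 highest and 20 lowest DEGs that averaged 5 FPKM or more in 1 group, of each list up to 6 DEGs and the 2 members with the highest mean, and Anxa5. Results of some of these are not reported here, and other genes were chosen after their values were seen. Genes of the Toll-like receptor list were left out. Coordinates are from GENCODE M21 (GRCm38), in which all 319 DEGs were found. Alternatives were other pseudocounts, filters, scalings, empirical Bayes settings and fold thresholds, 6 libraries in the fit, a replicate block, and leaving out libraries.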

Additional observations from a re-analysis of the deposited data

How the results depend on the processing

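Against 319 DEGs as reported, no filter on low values gave 158, a fold threshold of 1.5 gave 78, and removal of the 3 libraries numbered 2 gave 11, of which 6 were among the 319. Leaving out 1 library at a time gave between 120 (without M+AnxA5 replicate 3) and 340 (without Control replicate 1); a group left with 2 libraries shared the spread of the others. With the replicate number as a block 184 DEGs were found. Under the block the NRF2 list held 0 DEGs and the lysosomal hydrolases held 0 higher and 1 lower. Sterol synthesis then held 5 higher DEGs, the proton pump 4 and MHC class II 1. The numbers were not taken to pair the libraries: deviations of same-numbered M+AnxA5 and Model libraries correlated with r of 0.112, 0.0770 and 0.0524 over genes. All 6 libraries correlated best with their own number, which is a hint from the data and not from the design. The other pseudocounts, scalings, filters and empirical Bayes settings, the fit of 6 libraries and the absence of a fold threshold gave between 251 and 374. Of the 162 DEGs named by rule or in the text 0 changed direction under an alternative that tested them, and of the 107 such genes that were not called 33 did. This contrast follows from the selection of DEGs by their difference and adds no support to the calls. A minimum of 5 FPKM tested 232 of all these named genes. Only 6 DEGs were called under all alternatives, fold thresholds aside. The cause of these differences was not tested, except that no filter enlarges and stricter filters reduce the number of genes tested. Depth could not be turned into counts, so no count test was run. At 0.0277 to 0.0386 FPKM per fragment on 1 kb, short transcripts near 1 FPKM rest on few fragments.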

Other observations

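Metabolic enzymes outside the lipid pathways gave single calls. Vnn3, a pantetheinase of the vanin family that recycles vitamin B5, had 5.70, 7.30 and 5.48 FPKM in the M+AnxA5 libraries, against 2.42, 1.88 and 3.05 FPKM in the Model libraries (log2 fold change 1.06, SE 0.14, adjusted p = 0.00645), 1 of the 8 DEGs over 2-fold. Eno2, an enolase of glycolysis known from neurons, had 1.87, 2.14 and 2.000 FPKM with AnxA5, against 1.01, 0.976 and 0.858 FPKM in the Model libraries (log2 fold change 0.62, SE 0.077, adjusted p = 0.00480) and was the only DEG among 38 genes of glycolysis and the pentose phosphate pathway. Pdxk, the kinase that activates vitamin B6, had 14.3, 16.4 and 15.4 FPKM with AnxA5, against 10.7, 8.57 and 9.32 FPKM in the Model libraries (log2 fold change 0.64, SE 0.077, adjusted p = 0.00476). Kynu, a vitamin B6-dependent enzyme of tryptophan breakdown, had 6.30, 6.57 and 6.57 FPKM with AnxA5, against 4.68, 4.43 and 4.36 FPKM in the Model libraries (log2 fold change 0.45). Cox6c, a subunit of cytochrome oxidase, had 13.8, 15.03 and 13.6 FPKM with AnxA5, against 10.04, 10.03 and 10.2 FPKM in the Model libraries (log2 fold change 0.45) and was the only DEG of 40 genes of oxidative phosphorylation (the count was 2 without Model replicate 1 and 0 without the 3 libraries numbered 2); it overlaps Vps13b. Hscb, a co-chaperone of iron-sulfur cluster assembly, had 4.69, 4.43 and 4.15 FPKM with AnxA5, against 2.77, 3.20 and 3.01 FPKM in the Model libraries (log2 fold change 0.44). Slc6a19, a transporter of neutral amino acids, had 3.36, 3.49 and 3.41 FPKM with AnxA5, against 2.29, 1.77 and 1.78 FPKM in the Model libraries (log2 fold change 0.59).

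Further DEGs were on none of the lists. Slx4ip, whose protein binds the nuclease scaffold SLX4, was lower, with 6.94, 6.53 and 6.57 FPKM with AnxA5, against 11.03, 11.8 and 11.8 FPKM in the Model libraries (log2 fold change -0.71, SE 0.073, adjusted p = 0.00273) and overlaps Mkks. Ell2, an elongation factor of RNA polymerase II, was lower, with 23.96, 23.7 and 23.7 FPKM with AnxA5, against 30.8, 30.4 and 29.7 FPKM in the Model libraries (log2 fold change -0.34, SE 0.035, adjusted p = 0.00273). Nrm, a protein of the nuclear envelope, was lower, with 0.818, 0.577 and 0.936 FPKM with AnxA5, against 1.71, 2.24 and 1.57 FPKM in the Model libraries (log2 fold change -0.67). Nrm was described only through the Model libraries, where it was high. Kctd12, which encodes an auxiliary subunit of GABA-B receptors, had 36.2, 30.1 and 29.96 FPKM with AnxA5, against 50.9, 55.2 and 46.7 FPKM in the Model libraries (log2 fold change -0.65, SE 0.086, adjusted p = 0.00588). Hivep3, a zinc finger transcription factor, was higher (4.75, 5.09 and 5.20 FPKM with AnxA5, against 3.22, 3.15 and 3.38 FPKM in the Model libraries; log2 fold change 0.50). Dnmt3aos, a transcript antisense to Dnmt3a, had 3.04, 4.78 and 4.45 FPKM with AnxA5, against 1.54, 0.930 and 1.19 FPKM in the Model libraries (log2 fold change 1.19); whether the authors counted by strand is not given in the sources used here, so reads of the 2 genes cannot be told apart. All of these genes were kept when each of the 9 libraries was left out in turn, and those that neither a list nor the rule on size names were chosen after their values were seen.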
